A study of Mus musculus with 12 samples.

Results

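The Ttc30 genes and 5 further genes of intraflagellar transport complex B (IFT-B) were followed through 12 mouse liver libraries. The 8 genes were Ttc30a1, Ttc30a2, Ttc30b, Ift46, Ift52, Ift74, Ift81 and Ift88, taken by Entrez identifier from a table of 26301 genes. They were chosen by the log2 fold changes of Ttc30b against control livers, which had opposite signs in the 2 tumor genotypes in earlier results from the same libraries. The contrasts of Ttc30b are therefore given as a description, without a test, and the other 7 genes are its paralogs and partners.
RNA sequencing covered 4 livers labelled as adult wild-type (non-tumor tissue, called control), 4 spontaneous liver tumors labelled DKO and 4 labelled TKO. The genotype label of the first tumors is Alb-Cre-E2f7 E2f8 knockout, and that of the others is Alb-Cre-Rb1 E2f7 E2f8 knockout, both from adult mice. Cre was driven by the albumin promoter, which the study describes as specific to hepatocytes. Which cells of a tumor kept the genes cannot be seen in these libraries. By their labels both tumor groups share the loss of E2f7 and E2f8, and the tumors labelled TKO add the loss of Rb1. The mice were in the fifth generation of breeding into FVB and belonged to an end-of-life study. The methods count 4 livers for each condition, the number of libraries per group, and p values measure the spread between these libraries.
Total counts per library ran from 9165812 to 16424973. Rb1 was at 8.29 ± 1.75 CPM (counts scaled to library size) in control livers, 9.0 ± 1.52 CPM in the tumors labelled DKO and 4.45 ± 0.975 CPM in those labelled TKO (SD, n = 4 each), and every library labelled TKO was below every other library. E2f7 (0.812 ± 0.239, 1.15 ± 0.716 and 0.803 ± 0.0882 CPM) and E2f8 (6.24 ± 1.92, 20.5 ± 17.2 and 26.1 ± 18.5 CPM) were not lower in the tumors. Counts summed over whole genes do not show which exons the reads came from, so the tumor groups are named by their labels throughout.

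A primary cilium is built and kept by trains of proteins that move along its microtubules. IFT-B, pulled by kinesin, carries tubulin and other cargo to the tip, and IFT-A, moved by a dynein, serves the return. TTC30 proteins, made of tetratricopeptide repeats, are subunits of the IFT-B core, in which they bind IFT52, and IFT46 and IFT88 lie in the same part of the complex, while IFT74 and IFT81 form a pair that binds tubulin. In liver, primary cilia are a feature of the bile duct cells (cholangiocytes), and hepatocytes usually lack them.

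The 3 Ttc30 genes lay next to each other on the minus strand of chromosome 2 in the mm9 genome, each with a single exon and annotated as protein-coding. Ttc30b (Entrez 72421) covered chr2:75773920-75776519, Ttc30a2 (620631) chr2:75814129-75816257 and Ttc30a1 (78802) chr2:75817163-75820024. Their coding sequences had the same length, 1995 bases, and differed at 150 positions over all 3 genes. Pairwise identity was 95.1% between Ttc30a1 and Ttc30a2, 94.8% between Ttc30a1 and Ttc30b and 94.9% between Ttc30a2 and Ttc30b. The longest coding run that was identical in all 3 genes had 212 bases, longer than the reads of 40 bases. Its first 60 bases, coding bases 1327 to 1386, are printed to show sequence from which a read cannot be given to a single gene (mm9, minus strand, chr2:75818409-75818468 in Ttc30a1, chr2:75814838-75814897 in Ttc30a2 and chr2:75775079-75775138 in Ttc30b).
All 3 Ttc30 genes: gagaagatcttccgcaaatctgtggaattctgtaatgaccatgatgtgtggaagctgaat

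The 60 coding bases with the most differences, bases 559 to 618, are printed to show where Ttc30a2 can be told from the other genes. Capitals mark the 19 positions at which the 3 genes are not all alike. The stretch lies at chr2:75819177-75819236 in Ttc30a1, chr2:75815606-75815665 in Ttc30a2 and chr2:75775847-75775906 in Ttc30b (mm9, minus strand).
Ttc30a1: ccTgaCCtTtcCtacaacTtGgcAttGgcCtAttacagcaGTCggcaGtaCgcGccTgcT
Ttc30a2: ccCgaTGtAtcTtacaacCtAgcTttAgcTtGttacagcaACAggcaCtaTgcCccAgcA
Ttc30b: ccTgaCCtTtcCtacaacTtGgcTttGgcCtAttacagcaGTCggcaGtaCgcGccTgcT
Ttc30a1 and Ttc30b were nearly alike in this stretch, which hardly separates these 2 genes.

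Each transcript was cut into all its windows of 40 bases, and exact matches of every window were looked up in both strands of the mm9 genome. A window that differs from another gene at a single base counts as unique here. Where mapping allows mismatches, fewer reads can be given to a single gene than these shares show. Of 2561 windows of Ttc30b, 1494 (58.3%) were found at this gene only. The same held for 1558 of 2823 windows (55.2%) of Ttc30a1 and for 709 of 2090 windows (33.9%) of Ttc30a2. All other windows also occurred in another Ttc30 gene, and 0 occurred anywhere else. How reads with several matches were counted is not given in the sources used here, so the split of counts among the 3 genes is uncertain, most of all for Ttc30a2, while their sum is not affected by reads moved from one Ttc30 gene to another.

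**Figure D1:**
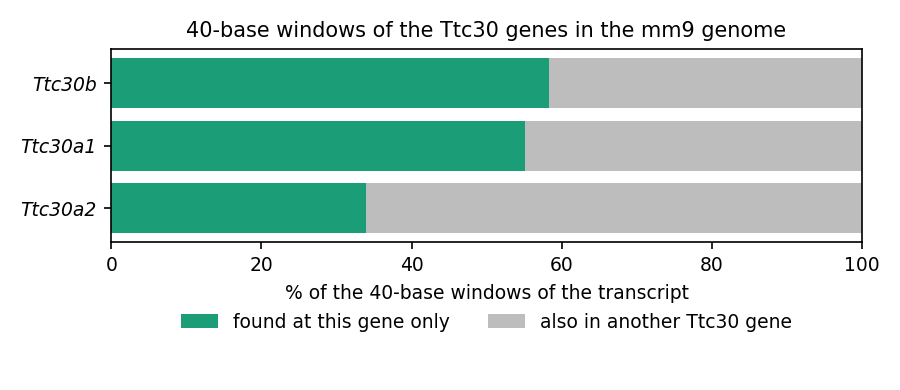
Share of the 40-base windows of each Ttc30 transcript (x axis, %) that occur only at that gene in the mm9 genome (green) or also in another Ttc30 gene (grey). Only exact matches count. The unique share is 58.3% for Ttc30b, 55.2% for Ttc30a1 and 33.9% for Ttc30a2.

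Promoter sequences (RefSeq, GRCm38.p6, 250 bases before to 50 bases after the start) were at hand for 6 of the 8 genes, not for Ttc30b and Ift81. They were searched on both strands for an X-box, the element read by RFX factors of ciliary genes (GTTNCC, 0 to 3 bases, GGNAAC), and for an E2F site (TTTCCCGC, TTTCGCGC, TTTGCCGC or TTTGGCGC). The only match was an X-box in Ttc30a2, from 24 to 11 bases before the start. It is shown in capitals within chr2:75978180-75978233 (GRCm38.p6, minus strand).
Ttc30a2 promoter: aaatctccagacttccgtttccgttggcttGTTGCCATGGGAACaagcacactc
Of all 32851 promoters of this length, 264 (0.804%) held the X-box and 744 (2.26%) held an E2F site, and an E2F site was found in 0 of the 6. A match describes letters in this window only.

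Ttc30b was low and even in the tumors labelled DKO and high in those labelled TKO. Its counts were 101, 111, 187 and 72 in control livers 1 to 4, then 74, 64, 105 and 94 in the tumors labelled DKO, and 217, 175, 212 and 359 in the tumors labelled TKO. Scaled to library size this gave 7.49, 13.7, 12.7 and 5.27 CPM in control livers, 5.67, 5.06, 6.21 and 5.54 CPM in the tumors labelled DKO and 13.1, 12.4, 16.3 and 26.8 CPM in the tumors labelled TKO. The 2 tumor groups did not overlap. The control livers spanned both, since controls 1 and 4 lay near the tumors labelled DKO and controls 2 and 3 lay at the level of the lower tumors labelled TKO. Group means were 9.77 ± 4.04 CPM in control livers, 5.62 ± 0.472 CPM with DKO and 17.1 ± 6.64 CPM with TKO labels (SD, n = 4 each). The log2 fold change was -0.79 (standard error 0.313) for DKO against control, 0.82 (standard error 0.306) for TKO against control and 1.60 (standard error 0.309) for TKO against DKO. Without TKO 4, the highest library, the last 2 values were 0.51 and 1.31. Of 13882 tested genes, 98 had a higher log2 fold change between the tumor groups, a rank that follows in part from how Ttc30b was chosen.

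**Figure D2:**
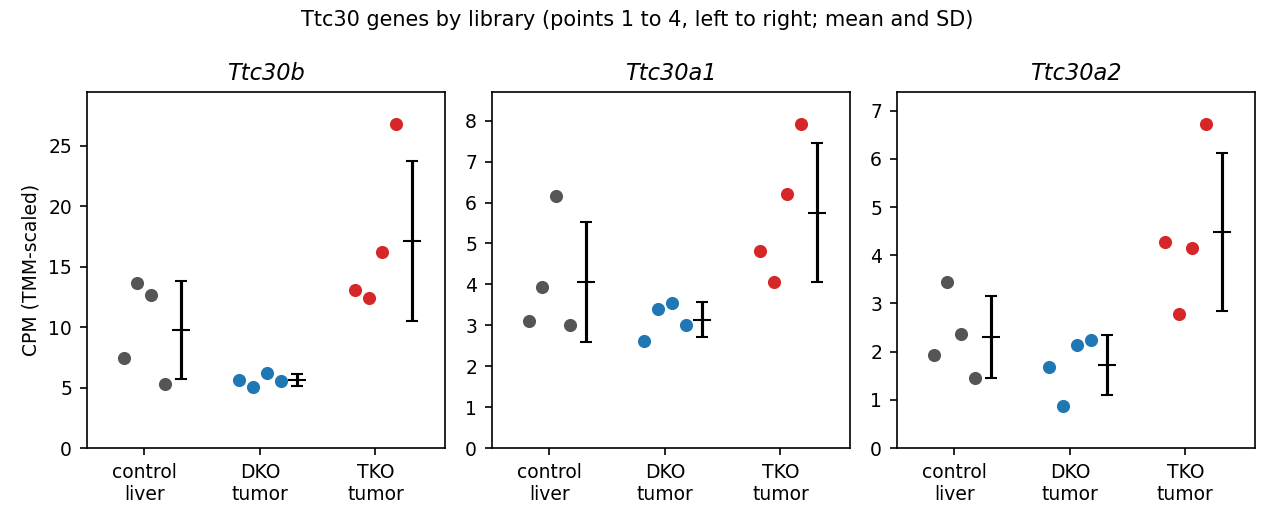
CPM (y axis, scaled with edgeR's TMM factors) of Ttc30b, Ttc30a1 and Ttc30a2 in 4 control livers, 4 tumors labelled DKO and 4 labelled TKO. Each point is a library, in the order 1 to 4 from left to right, and the bars give the mean and SD. For each gene the lowest TKO value is above the highest DKO value, and for each gene TKO 4 is the highest library.

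The paralogs showed the same order of groups at lower levels, and their counts could include reads of Ttc30b. Ttc30a1 was at 3.12, 3.93, 6.17 and 3.00 CPM in control livers, 2.61, 3.40, 3.55 and 3.01 CPM in the tumors labelled DKO and 4.82, 4.05, 6.21 and 7.91 CPM in those labelled TKO. Every tumor labelled TKO was above every tumor labelled DKO, and the control livers overlapped both groups. The log2 fold change between the tumor groups was 0.87 (standard error 0.280, 95% confidence interval 0.26 to 1.48, edgeR adjusted p = 0.450).
Ttc30a2 had the fewest counts of the family, between 11 and 90 per library. It was at 1.93, 3.44, 2.37 and 1.46 CPM in control livers, 1.69, 0.870, 2.13 and 2.24 CPM in the tumors labelled DKO and 4.28, 2.77, 4.14 and 6.71 CPM in those labelled TKO. Here too the tumor groups did not overlap, and of the control livers only control 2 reached into the range of the tumors labelled TKO. The log2 fold change between the tumor groups was 1.36 (standard error 0.365, 95% confidence interval 0.56 to 2.15, edgeR adjusted p = 0.407). Tumor groups that did not overlap were found for 4.87% of all tested genes (2.75% with the TKO label higher). In the comparisons with control livers, 16.2% of genes for DKO and 7.67% for TKO did not overlap, and 0 of the 7 genes beside Ttc30b did. The unadjusted p was 0.00903 for Ttc30a1 and 0.00294 for Ttc30a2 in the same edgeR fit, and neither passed the adjustment over all genes.

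Against the control livers, neither paralog passed. For DKO against control the log2 fold change was -0.37 (standard error 0.283) for Ttc30a1 and -0.38 (standard error 0.374) for Ttc30a2, with edgeR adjusted p = 0.456 and 0.566. For TKO against control it was 0.50 (standard error 0.279) and 0.97 (standard error 0.364), with edgeR adjusted p = 0.403 and 0.222. Leaving out control 3 brought the first DKO value to -0.09, leaving out control 2 brought the second to -0.14, and leaving out DKO 2 brought the second to -0.17. Without TKO 4 the TKO value of Ttc30a1 was 0.30. Counts of Ttc30a1 and Ttc30a2 added together before the fit gave log2 fold changes of -0.38, 0.69 and 1.07 for the 3 comparisons, with edgeR adjusted p = 0.417, 0.234 and 0.399.

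Since reads can be assigned to the wrong paralog, the family was also taken as a sum. The summed level of the 3 Ttc30 genes was 12.5, 21.0, 21.2 and 9.74 CPM in control livers, 9.97, 9.33, 11.9 and 10.8 CPM with the DKO label and 22.2, 19.3, 26.6 and 41.4 CPM with the TKO label. With all counts of the family in 1 gene, the log2 fold change was -0.61 for DKO against control, 0.77 for TKO against control and 1.38 for TKO against DKO, which are descriptions because Ttc30b makes up most of the sum. Ttc30b took 54.1 to 64.9% of the family's counts in control livers, 51.4 to 56.9% with the DKO label and 59.0 to 64.7% with the TKO label. It was the largest part in all 12 libraries, and its share was higher in each tumor labelled TKO than in any tumor labelled DKO.

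The Ift partners overlapped between all groups. Their 5 genes summed to 67.5, 84.3, 79.1 and 62.8 CPM in control livers, 66.5, 56.2, 65.4 and 69.8 CPM in the tumors labelled DKO and 67.1, 66.3, 69.0 and 65.6 CPM in those labelled TKO. The tumors labelled TKO, whose Ttc30 sums spread most, were the closest together in this sum (66.99 ± 1.49 CPM, against 64.5 ± 5.84 CPM with the DKO label and 73.4 ± 9.98 CPM in control livers, SD, n = 4 each). The narrow sum does not mean that each gene was steady, since Ift46 was higher and Ift52 lower in TKO 1 and 2 than in TKO 3 and 4. With the TKO label Ift52 spread most (SD 4.02 CPM, against 1.54 with DKO and 3.13 in control livers). Ift46 spread least there (3.56, against 5.17 and 6.42 CPM). Within a library, the Ttc30 genes took 13.4 to 21.2% of the counts of all 8 genes in control livers, 13.0 to 15.4% with the DKO label and 22.5 to 38.7% with the TKO label. This share needs no scaling between libraries, and the tumors labelled TKO were above all other libraries, again as a description because most of the Ttc30 counts are of Ttc30b. With Ttc30b left out, Ttc30a1 and Ttc30a2 took 6.64 to 9.74% of the counts of the other 7 genes in control livers, 6.07 to 7.99% with the DKO label and 9.33 to 18.2% with the TKO label. The tumor groups then still did not overlap, and control 3 was above TKO 2. The counts of Ttc30a1 and Ttc30a2 could include reads of Ttc30b, so this share is a description too.

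Of the partners in the TTC30 part of the complex, Ift52 (Entrez 245866, chr2:162843090-162871877, plus strand, 13 exons), to which TTC30 binds, was at 28.9, 32.2, 29.6 and 24.7 CPM in control livers, 24.9, 21.5, 24.6 and 23.8 CPM in the tumors labelled DKO and 19.9, 18.7, 26.2 and 26.2 CPM in those labelled TKO. All groups overlapped. Its log2 fold change was -0.28 (standard error 0.140), -0.34 (standard error 0.140) and -0.06 (standard error 0.140) for DKO against control, TKO against control and TKO against DKO, with edgeR adjusted p = 0.243, 0.254 and 0.913. The confidence interval of the last value, from -0.36 to 0.24, did not reach the value of any Ttc30 gene.
Ift46 (Entrez 76568, chr9:44575991-44600797, plus strand, 12 exons) had the most counts of the 8 genes in most libraries, 306 to 611. It was at 27.3, 40.6, 38.6 and 30.2 CPM in control livers, 26.3, 24.2, 29.6 and 36.0 CPM in the tumors labelled DKO and 36.4, 36.0, 30.7 and 29.5 CPM in those labelled TKO, with overlap among all groups. Its log2 fold change between the tumor groups was 0.19 (95% confidence interval -0.17 to 0.55, edgeR adjusted p = 0.743).
Ift88 (Entrez 21821, chr14:58042899-58136773, plus strand, 26 exons), the gene whose loss in mouse is a classic model of absent cilia, was at 4.82, 4.18, 3.86 and 3.51 CPM in control livers, 4.98, 2.85, 4.20 and 3.30 CPM in the tumors labelled DKO and 3.98, 4.83, 5.29 and 4.48 CPM in those labelled TKO. The groups overlapped, and between the tumor groups the log2 fold change was 0.28 (95% confidence interval -0.19 to 0.74, edgeR adjusted p = 0.718). The annotation places an exon of an antisense transcript, 2310043D23Rik, over an exon of Ift88, and as the strand setting of the counting is not given, reads of this transcript could be in the Ift88 counts.

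The tubulin-binding pair was low. Ift74 (Entrez 67694, chr4:94281182-94359920, plus strand, 20 exons) had 32 to 66 counts per library, and was at 3.26, 3.93, 3.52 and 2.34 CPM in control livers, 4.14, 3.16, 3.25 and 3.89 CPM in the tumors labelled DKO and 2.89, 2.56, 3.38 and 2.76 CPM in those labelled TKO. Ift81 (Entrez 12589, chr5:123000213-123064527, minus strand, 19 exons) had 28 to 80 counts, and was at 3.19, 3.44, 3.46 and 2.05 CPM in control livers, 6.13, 4.43, 3.67 and 2.77 CPM in the tumors labelled DKO and 3.86, 4.19, 3.45 and 2.61 CPM in those labelled TKO. Both overlapped between all groups. Ift74 had, between the tumor groups, a log2 fold change of -0.32 (95% confidence interval -0.78 to 0.15) and Ift81 of -0.26 (95% confidence interval -0.86 to 0.34), with edgeR adjusted p = 0.672 and 0.793. Against control livers the values of Ift74 were 0.15 and -0.17, and those of Ift81 were 0.48 and 0.22, for the DKO and TKO labels in that order, with edgeR adjusted p between 0.313 and 0.752 in the same fit. At these counts a change as large as that of Ttc30a1 (0.87) lay outside the intervals of both genes between the tumor groups.

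**Figure D3:**
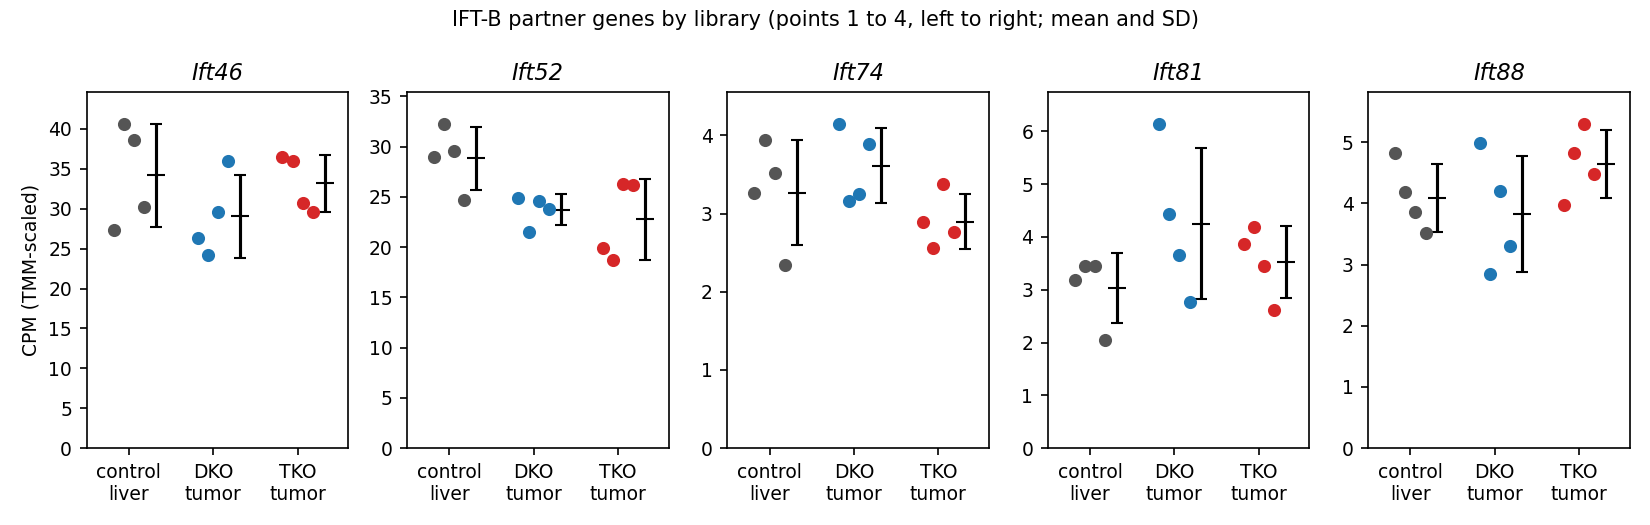
CPM (y axis, scaled with edgeR's TMM factors) of Ift46, Ift52, Ift74, Ift81 and Ift88 in 4 control livers, 4 tumors labelled DKO and 4 labelled TKO. Each point is a library, in the order 1 to 4 from left to right, and the bars give the mean and SD. For every gene the points of the groups overlap.

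Counted over the 7 genes other than Ttc30b, edgeR called 0 of 7 in each comparison at an adjusted p of 0.05. Over all 13882 tested genes it called 2.42% for DKO against control, 0.0864% for TKO against control and 0% for TKO against DKO, so a count of 0 among 7 is near the background in each. DESeq2, the tool named in the study's methods, also called 0 of 7 in each, and called 10.4%, 3.49% and 0.398% of all genes it tested. An unadjusted edgeR p under 0.05 was found for 0, 2 and 2 of the 7, beside 3329, 2259 and 1250 of all 13882 genes. For TKO against control these were Ttc30a2 and Ift52, which went opposite ways, and for TKO against DKO they were Ttc30a1 and Ttc30a2. The median log2 fold change of the 7 was -0.23, 0.18 and 0.19 in the order above, and that of all tested genes was 0.02, 0.02 and 0.01.

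**Figure D4:**
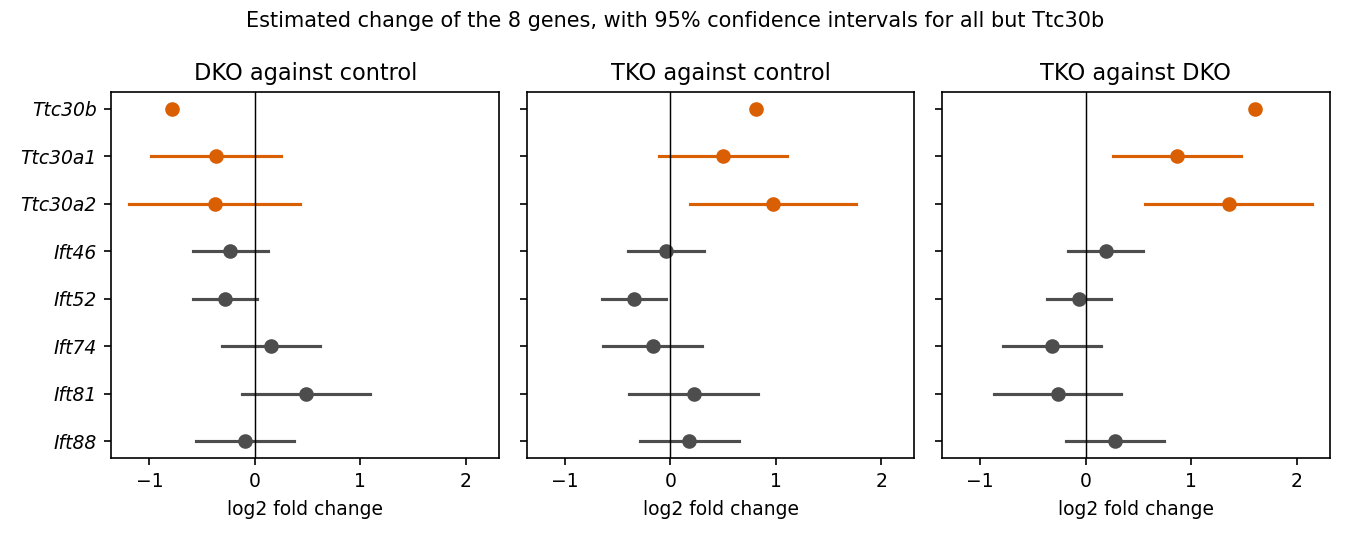
Log2 fold change (x axis) of the 8 genes in each comparison from edgeR's fit over 12 libraries, with the 95% confidence interval of each gene other than Ttc30b (Ttc30 genes in orange, Ift genes in grey). Between the tumor groups the 3 Ttc30 estimates are 1.60, 0.87 and 1.36, and the 5 Ift estimates lie between -0.32 and 0.28.

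In control livers the order of levels per kilobase of exon was Ift52 (10.3 ± 1.12 CPM per kb), Ift46 (6.0 ± 1.13), Ttc30b (3.76 ± 1.55), Ttc30a1 (1.42 ± 0.513), Ift74 (1.23 ± 0.254), Ttc30a2 (1.08 ± 0.397), Ift88 (0.885 ± 0.120) and Ift81 (0.879 ± 0.193) (SD, n = 4 each). Only Ift52 and Ift46 were neighbours whose ranges did not overlap, and every other neighbouring pair in this order overlapped. In the tumors labelled TKO, Ttc30b reached 6.59 ± 2.55 CPM per kb, beside 5.82 ± 0.626 for Ift46 and 8.12 ± 1.44 for Ift52. In the tumors labelled DKO it stood at 2.16 ± 0.182 CPM per kb, and Ift46 and Ift52 at 5.10 ± 0.907 and 8.46 ± 0.549.

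Among 13881 other tested genes, those most like Ttc30b over the 12 libraries, by Pearson's r of log2 CPM, were its own paralogs Ttc30a2 (r = 0.905) and Ttc30a1 (r = 0.902). Reads shared among the 3 genes would raise these values. Next came 9130019O22Rik (r = 0.897), Cd59a, which encodes a complement inhibitor (r = 0.887), and Cnpy2, of the canopy family of endoplasmic reticulum proteins (r = 0.873). After the group means were taken out, r was 0.771 and 0.795 for Ttc30a2 and Ttc30a1, 0.861 for 9130019O22Rik, 0.754 for Cd59a and 0.775 for Cnpy2. These genes were picked for a high r over the same 12 libraries, so high values within groups partly follow from that choice. Over all 12 libraries the Ift partners ranked lower. Ift88 had r = 0.487 (1080 by rank), Ift46 0.429 (1580), Ift52 0.171 (4528), Ift81 -0.146 (9014) and Ift74 -0.166 (9330). With the group means taken out the order was another. Ift52 then had r = 0.796, as high as the paralogs, and Ift74 had 0.596, Ift46 0.282, Ift88 0.166 and Ift81 0.084. Ift52 and Ttc30b thus varied together within groups, although the tumor groups differed in Ttc30b and overlapped in Ift52. These correlations are descriptions over libraries that share groups and depth.

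Genes beside the Ttc30 block on chromosome 2 were looked at next. Agps, a peroxisomal enzyme of ether lipid synthesis 4513 bases from Ttc30b, was at 23.2 ± 9.72 CPM in control livers, 33.5 ± 4.07 CPM with the DKO and 24.4 ± 7.66 CPM with the TKO label (SD, n = 4 each). Its log2 fold change between the tumor groups was -0.45 (standard error 0.290, edgeR adjusted p = 0.652), opposite in sign to the Ttc30 genes. Nfe2l2, the NRF2 transcription factor of the oxidative stress response, had -0.13 (edgeR adjusted p = 0.838) and Rbm45, an RNA-binding protein, had 0.36 (edgeR adjusted p = 0.548) in the same edgeR fit. E030042O20Rik, Pde11a and Cyct had at most 6 counts in any library and were not tested. The deleted genes are on other chromosomes than the Ttc30 block, Rb1 on 14, E2f7 on 10 and E2f8 on 7. Of the Ift partners, Ift88 is on chromosome 14 as Rb1 is.

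Other genes of the pathway were taken from lists by role. In the remainder of IFT-B, 10 genes (Ift20, Ift22, Hspb11, Ift27, Cluap1, Traf3ip1, Ttc26, Ift57, Ift80 and Ift172) were tested, and edgeR called 1 of 10 for DKO against control (background 1.41% higher and 1.01% lower) and 0 of 10 in the other comparisons. Their median log2 fold change was 0.15, 0.16 and -0.12. The gene called was Ift80, which rose from 3.52 ± 0.414 CPM in control livers to 6.48 ± 1.30 CPM in the tumors labelled DKO, all above the control livers (log2 fold change 0.88, standard error 0.203, edgeR adjusted p = 0.0488). With the TKO label Ift80 was at 4.72 ± 0.831 CPM (SD, n = 4 each). Between the tumor groups the 10 genes lay between -0.45 and 0.38, below each Ttc30 gene.
The list for IFT-A also held the associated gene Tulp3. In it edgeR called 1 of 7 genes for DKO against control (2.42% of all genes) and 0 of 7 in the others. This was Ift122, a core subunit of IFT-A, which rose from 1.99 ± 0.480 to 4.63 ± 1.13 CPM (log2 fold change 1.20, standard error 0.265, edgeR adjusted p = 0.0460), with 2.81 ± 0.533 CPM under the TKO label. Between the tumor groups Ift122 was the lowest of the 7 at -0.71 and Ift43, a small subunit of IFT-A, the highest at 0.73 (edgeR adjusted p = 0.491 and 0.554). Ift43 was at 0.864 ± 0.261, 0.921 ± 0.298 and 1.54 ± 0.296 CPM in control, DKO and TKO libraries (SD, n = 4 each). The calls of Ift80 and Ift122 were close to the threshold. In fits that each left out 1 library they held without TKO 3 or TKO 4 only, with edgeR adjusted p from 0.0363 to 0.145 for Ift80 and from 0.0336 to 0.135 for Ift122, and DESeq2 called both (DESeq2 adjusted p = 0.00565 and 0.00267).

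For the lists that follow, the edgeR background was 2.42% of all genes for DKO against control, 0.0864% for TKO against control and 0% for TKO against DKO. A count of 0 in a list is near it. Among the motors of the trains, 0 of 11 tested genes were called by edgeR in any comparison. DESeq2 called Dynll1 and Kif3a for DKO against control, 2 of 11 beside 10.4% of all genes. The highest of them between the tumor groups was Wdr34, a dynein intermediate chain, at 0.53 (edgeR adjusted p = 0.585), and the lowest was Dynll1, a light chain shared by several dyneins, at -0.48 (edgeR adjusted p = 0.735). The list for the BBSome, the cargo adaptor that rides on the trains, also held the associated genes Arl6 and Lztfl1. In it 0 of 10 genes were called in any comparison. Bbs1 was the highest (0.39) and Bbs2 the lowest (-0.38) between the tumor groups. Of genes of ciliary signalling, 0 of 11 tested were called by edgeR. DESeq2 called Evc2 for DKO against control and Arl13b for TKO against control, 1 of 11 each beside 10.4% and 3.49% of all genes. Smo, the Hedgehog signal transducer, was the highest between the tumor groups at 0.70 (10.49 ± 2.99, 12.04 ± 5.66 and 19.5 ± 6.43 CPM in control, DKO and TKO libraries), and Evc, which acts at the base of the cilium, was the lowest at -1.17 (3.48 ± 1.06, 10.45 ± 6.87 and 4.62 ± 4.08 CPM, SD, n = 4 each).
Of 10 genes linked to the disassembly of cilia, edgeR called Plk1, a mitotic kinase, for DKO against control, 1 of 10 beside 2.42% of all genes. Plk1 rose from 0.668 ± 0.495 to 3.16 ± 1.27 CPM (log2 fold change 2.21, standard error 0.494, edgeR adjusted p = 0.0469). Without single libraries its adjusted p ran from 0.0298 to 0.140, and it held without DKO 3, TKO 3 or TKO 4 only. DESeq2 called Plk1 and Nek2 for DKO against control, 2 of 10 beside 10.4% of all genes. None of the 10 was called in the other comparisons by edgeR. Of 6 tested transcription factors of ciliary genes, 0 were called, which is near the background as well. Rfx4, between the tumor groups, was at 1.21 (edgeR adjusted p = 0.642) and Rfx3 at -0.22 (edgeR adjusted p = 0.886). For no list did edgeR call a gene between the tumor groups. It called 0 of all 13882 genes there, so no list could hold a call and this says nothing about the lists.

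**Figure D5:**
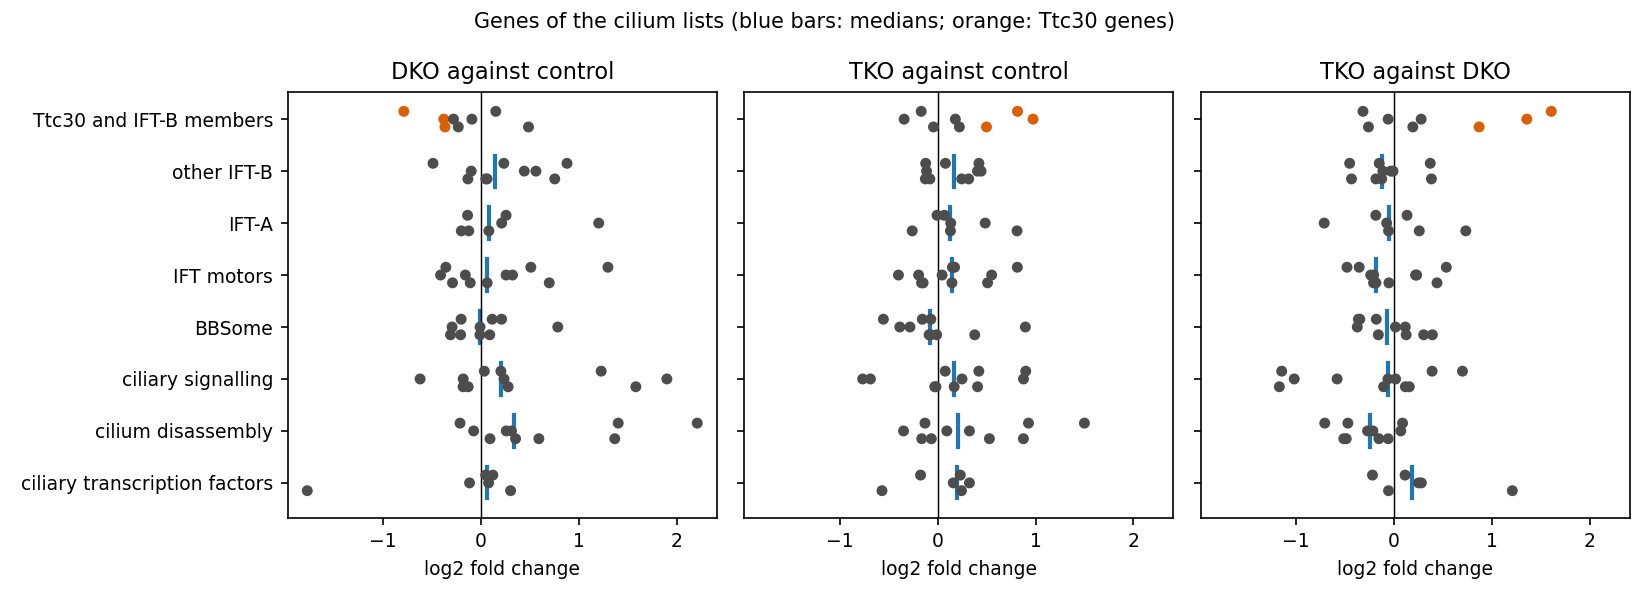
Log2 fold change (x axis) of each tested gene of the cilium lists in each comparison. Blue bars are list medians, drawn for the lists other than the 8 genes, and orange points are the Ttc30 genes. Between the tumor groups the Ttc30 genes lie between 0.87 and 1.60, and single genes of the other lists lie between -1.17 (Evc) and 1.21 (Rfx4).

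Cell type markers moved with the groups in part. In bulk tissue, fewer cells of a type and less RNA per cell cannot be told apart. The 10 cholangiocyte markers summed to 48.3 to 73.2 CPM in control livers, 109.5 to 194 CPM in the tumors labelled DKO and 62.4 to 86.0 CPM in those labelled TKO, with 0 of the 10 at 0 counts throughout a group. The tumors labelled DKO had the highest sums, with high counts there of Spp1 (201 to 1314), Tspan8 (421 to 891) and Prom1 (178 to 854). Krt19 (4 to 106 counts) and Epcam (6 to 234 counts) were present in every library. Their counts overlapped between the tumor groups (47 to 106 with DKO and 7 to 83 with TKO labels for Krt19, 97 to 234 and 6 to 144 for Epcam). The part of cholangiocytes in the Ttc30 levels was not tested. edgeR called 2 of 8 tested markers higher for DKO against control (1.41% of all genes), Prom1 and Tspan8, which held in 6 and 5 of the 12 fits that each left out 1 library (highest edgeR adjusted p 0.111 and 0.134). Both held without control 1, DKO 3, TKO 2, TKO 3 or TKO 4, and Prom1 also without TKO 1. Prom1 was at 2.61 ± 0.726, 38.2 ± 23.4 and 5.61 ± 3.32 CPM and Tspan8 at 7.82 ± 4.97, 43.9 ± 22.3 and 8.39 ± 3.81 CPM in control, DKO and TKO libraries (SD, n = 4 each). Between the tumor groups all libraries labelled TKO were below all labelled DKO for both genes. These were 2 of the 8 tested markers, beside 4.87% of all tested genes without overlap in either direction. The log2 fold changes of Prom1 and Tspan8 there were -2.76 and -2.38 (edgeR adjusted p = 0.281 for both). DESeq2 called both lower (DESeq2 adjusted p = 0.000513 and 0.0029), where it called 0.398% of all genes. Of 6 markers of multiciliated cells, Tekt1 had 0 to 1 and Ccdc39 0 to 3 counts per library, and their sum (11.9 to 17.7, 20.4 to 65.8 and 7.01 to 106 CPM) came mostly from Dnaic1 (85 to 1480 counts).
Hepatocyte markers (8 genes, with albumin) summed to 86310 to 145600 CPM in control livers, 129500 to 310400 CPM with the DKO and 58860 to 233700 CPM with the TKO label. Alb made up 63.8 to 92.2% of this sum. For DKO against control 3 of the 8 markers, Alb, Apoa1 and Hnf4a, had values above 0, the median log2 fold change was -0.51, edgeR called 0 and DESeq2 called Ttr lower (DESeq2 adjusted p = 0.0491), with groups that overlapped. Without Alb the sum ran from 23740 to 35210 CPM in control livers, from 17800 to 24170 CPM with the DKO and from 21290 to 27390 CPM with the TKO label, so its order of groups was not that of the full sum. TKO 4, with the highest Ttc30 sum, had the lowest full sum, but without Alb DKO 3 was lower. Among the control livers 2 and 3, with the higher Ttc30 sums, had the highest hepatocyte sums (145600 and 142400 CPM, against 86310 and 114100 CPM), also without Alb. Controls 2 and 3 also had lower macrophage marker sums (146 and 186 CPM) than controls 1 and 4 (386 and 393 CPM). Over the groups the 6 macrophage markers ran from 146 to 393, 57.7 to 343 and 106 to 411 CPM, the 8 stellate cell and fibroblast markers from 260.0 to 374, 150.4 to 566 and 205 to 377 CPM, the 6 endothelial markers from 112 to 173, 138 to 199 and 152 to 286 CPM, and the 6 lymphocyte markers from 5.15 to 18.6, 1.89 to 15.6 and 5.89 to 8.74 CPM. The part of these cells in the Ttc30 levels was not tested. The 6 proliferation genes summed to 24.1 to 39.4 CPM in control livers, 37.97 to 137 CPM with the DKO and 26.7 to 103 CPM with the TKO label. Among them edgeR called Mki67, 1 of 6 beside 1.41% of all genes, for DKO against control (log2 fold change 2.90, standard error 0.575, edgeR adjusted p = 0.0425). This call held in 4 of the 12 fits that each left out 1 library, those without DKO 3, TKO 2, TKO 3 or TKO 4, with edgeR adjusted p from 0.0253 to 0.134. DESeq2 called 5 of 6 for DKO against control (Ccna2, Ccnb1, Cdk1, Mki67 and Top2a, beside 10.4% of all genes) and Mki67 for TKO against control, all higher, and 0 of 6 between the tumor groups.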

How the data were processed

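SOLiD libraries from poly(A) RNA gave reads of 40 bases. The authors mapped the reads to mm9 with BWA and made gene tables with featureCounts (tools named also in the submitters' processing notes, without versions), and the deposited values are raw counts for 26301 Entrez genes, not normalized. Strand setting and treatment of reads with several matches are not given in the sources used here. Of the identifiers, 24191 had a symbol in RefSeq (GRCm38.p6), with 99.4% of all counts. Positions and exon lengths are from GENCODE vM1 (mm9), 1-based.

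The 8 genes, the gene lists and the markers were chosen with earlier results of these data known. Counts were fitted with edgeR 4.0.16 (R 4.3.3): TMM scaling, filterByExpr (13882 genes kept, all 8 among them), 12 libraries in 1 model with a mean per group, the quasi-likelihood test, and Benjamini-Hochberg adjustment over all tested genes at 0.05. CPM are counts divided by the TMM-scaled library size, with a prior count of 2 on the log2 scale. Ttc30b was given no test. The script was tested on simulated data. The highest Pearson r between 2 libraries was 0.975, and none was counted as a repeat of another.

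The alternatives were DESeq2 1.42.0, its size factors, total counts only, no filter, 10 counts in every library, a fit of the 8 libraries compared, an adjusted p of 0.1, a replicate block, Ttc30 counts summed, limma 3.58.1 voom with quality weights, sex-linked genes as covariate, each library left out and, added after seeing the data, edgeR's newer dispersion estimate. Named genes were the 8 genes, of each other list the genes called or else the highest and the lowest between the tumor groups, the 5 genes most like Ttc30b, the 3 nearest genes on either side, and Rb1, E2f7, E2f8 and Alb. Kif3a, Evc2, Arl13b and Nek2 (called by DESeq2), Ift43 and single markers and proliferation genes were named after their values were seen. Total counts bound the precision of low genes, such as Ttc30a2 with 11 counts in a library.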

Additional observations from a re-analysis of the deposited data

Results flagged for a closer look

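In 24 groups of 4 libraries (8 genes in 3 groups), 1 library stood far from its group on the log2 CPM scale. This was control 4 for Ift81, at 2.05 CPM against 3.19 to 3.46 CPM in the other control livers, where the gap took 0.844 of the group's range, above the limit for 4 samples. Chance gives about 1 such flag in 20 groups. Leaving out control 4 moved the log2 fold change of Ift81 against control livers to 0.33 for DKO, where it was 0.48, and to 0.07 for TKO, where it was 0.22.

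For Ttc30b all 4 tumors labelled DKO were below the mean of the control livers and all 4 labelled TKO were above it, with a log2 fold change of 1.605 between the tumor groups. For Ttc30a2 the tumors lay on opposite sides of the control mean in the same way, with 1.355 between the tumor groups. As 66.1% of the 40-base windows of Ttc30a2 also occur in another Ttc30 gene, its counts could include reads of Ttc30b. It is therefore not a separate observation of the pattern. The difference was not tested for Ttc30b, by whose contrasts the genes were chosen, and for Ttc30a2 it had adjusted p = 0.407 by edgeR's quasi-likelihood test. Both groups were set against the same 4 control livers, whose own values spanned 5.27 to 13.7 CPM for Ttc30b and 1.46 to 3.44 CPM for Ttc30a2.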

How the results depend on the processing

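Of the 7 genes other than Ttc30b, 0 were called in each comparison under 23 alternatives. In the 2 alternatives with summed Ttc30 counts, 0 of 6 (Ttc30a1 and Ttc30a2 as 1 gene) and 0 of 5 (the Ift genes alone) were called. The replicate number used as a block also gave 0 of 7 in each, and moved the count over all genes to 509, 1 and 0 from 336, 12 and 0. Same-numbered libraries share only a number, and the correlations of their deviations ran from -0.17 to 0.37. The count over all genes for DKO against control was 1518 with DESeq2, 1804 with voom, 1460 at an adjusted p of 0.1, 759 with the 8 libraries alone, 59 with total counts only, 8 with the covariate from sex-linked genes, and 0 to 651 when a library was left out. For TKO against control it was 507 with DESeq2, 97 with voom, 80 at an adjusted p of 0.1, 22 without a filter, 5 with the covariate, and 0 to 231 when a library was left out. For TKO against DKO it was 56 with DESeq2.

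Log2 fold changes near 0 turned sign. Ift88 for DKO against control was at 0.022 without DKO 2 (-0.258 to 0.022 when a library was left out). Ift46 for TKO against control was at 0.113 with total counts only, 0.048 and 0.022 without control 2 or 3, and 0.003 without TKO 4 (-0.138 to 0.048 when a library was left out). Ift52 for TKO against DKO was at 0.062 with total counts only and 0.021 without TKO 2 (-0.136 to 0.021 when a library was left out). Total counts only moved the median of all genes to 0.174 for TKO against control and 0.109 for TKO against DKO. Ttc30b kept its sign in every alternative (-0.998 to -0.593, 0.509 to 1.05 and 1.306 to 1.758). The genes were chosen by these signs in the same libraries, so this is a description only. Ttc30a1 and Ttc30a2 also kept their signs, and their counts could include reads of Ttc30b. The lowest adjusted p of these paralogs between the tumor groups were 0.232 and 0.0771, both with DESeq2. The DKO calls of Ift80 and Ift122 were lost with total counts only, without a filter and with the covariate, that of Ift80 also with the block, and those of Plk1, Mki67 and Tspan8 with total counts only and with the covariate, which also ended that of Prom1.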

Other observations

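The Ttc30 genes have a single exon. Among 228 other tested protein-coding genes with a single exon, the median log2 fold change was -0.13 for DKO against control, 0.00 for TKO against control and 0.14 for TKO against DKO, and 150 of the 228 were above 0 in the last. For 11203 genes with more exons the medians were 0.04, 0.03 and 0.00.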
